A study of Mus musculus with 22 samples.

Results

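Immediate early genes, stress response genes and heat shock genes were examined in ac4C immunoprecipitation sequencing (acRIP-seq) of mouse kidney. N4-acetylcytidine (ac4C) is an acetyl mark on RNA cytidines that is written by the acetyltransferase NAT10. In acRIP-seq, mRNA is fragmented, an antibody captures the fragments with ac4C (IP), and a library of the same RNA that did not pass through the antibody (input, the RNA-seq library) gives the abundance of the transcript. The members were the peaks whose gene name belongs to the FOS, JUN, EGR, IER, KLF, ATF, NR4A, DUSP, BTG, MYC, GADD45, ZFP36, DDIT, HSP, DNAJ, HIF, NFE2L, SESN, TRIB or SGK families or is Mcl1, Xbp1, Keap1 or Txnip, a rule on names that uses no measured value. This gave 158 of the 9857 peaks in the table, in 66 genes, with positions on GRCm38. Because a region could be called once in db/db and once in db/m mice, the 158 peaks covered 101 separate loci, and overlapping peaks share reads. The name pattern also took in Hspg2, which encodes the matrix proteoglycan perlecan, the mitochondrial ribosome gene Gadd45gip1 and the zinc finger gene Zfp362, which are not members of those families by function. Fos, Egr1, Atf3, Klf4, Klf6, Klf9, Myc, Txnip, Hspa8, Hif1a and Sgk1 were not analysed here.

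Kidneys were taken from 6 db/db mice, a strain in which loss of leptin receptor function leads to obesity and type 2 diabetes, and from 5 db/m mice, the heterozygous nondiabetic controls. The methods describe the animals as male, and no drug or vector is given for these libraries. The age at which these kidneys were taken is not given in the sources used here. Each animal had 1 IP and 1 input library, numbered alike in the labels, and each number was taken as 1 animal. Since this is kidney tissue, fewer cells of a type and less RNA per cell cannot be told apart.

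Immediate early genes are transcribed within minutes of a stimulus without new protein synthesis, and their products include the FOS and JUN subunits of AP-1. Heat shock genes encode chaperones that fold proteins, and DNAJ proteins are the co-chaperones that deliver clients to HSP70. Their transcription is driven by HSF1 under proteotoxic stress, whereas ATF4, CHOP (the product of Ddit3) and XBP1 act in the integrated stress and unfolded protein responses, and NRF2 (the product of Nfe2l2) acts in the oxidative stress response.

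Reads in peaks ranged from 7577171 to 10293757 in the IP libraries and from 3151035 to 3352535 in the input libraries. The members took 4.12% to 4.81% of the input reads in db/db mice and 5.52% to 6.17% in db/m mice, and 3.45% to 4.02% against 4.11% to 5.46% of the IP reads, so the share was lower in each db/db input library than in any db/m input library. Some IP libraries stood apart for genes of the marker lists. Levels are given in CPM, reads scaled to the total peak reads of the library times its TMM factor. Of 8 listed adipocyte markers 3 had a peak, and 1 of them, Lpl, encodes lipoprotein lipase. Lpl was at 2840, 3052 and 2700 CPM in the IP libraries of db/m animals 1, 2 and 4. It was at 320 CPM in that of db/db animal 6 and at 3.96 to 15.9 CPM in the others. The other 2, Adipoq and Plin1, were at most 2.42 CPM in every IP library. Adipoq was at 0.926 CPM in db/db animal 6 and at 0.509 and 0.435 CPM in db/m animals 1 and 4. It was at 0 in db/m animal 2 and at most 0.12 CPM in the other animals. Plin1 was highest in db/db animal 1 and did not follow Lpl. Whether adipose tissue was the source was not tested, and the 4 animals are called the animals with high Lpl. In input Lpl was at 3.71 to 6.67 CPM in db/db mice and 12.99 to 70.2 CPM in db/m mice. The summed IP level of 7 measured lung markers of 8 listed, led by Sftpc, Sftpa1 and Scgb1a1, was 51.6, 36.2, 35.4 and 12.2 CPM in db/db animals 1 to 4 and 0.223 to 1.80 CPM in the other animals. In input the same sum was 0.313 to 1.71 CPM in db/db mice and 0.963 to 1.60 CPM in db/m mice, so it was raised in IP and not in input of those 4 animals. The summed input level of 4 proximal tubule markers (Gatm, Lrp2, Slc34a1 and Slc5a2, of 8 listed) was 723 to 1320 CPM in db/db animals 1 to 5, 2240 CPM in db/db animal 6 and 1890 to 2040 CPM in db/m mice. These levels are unevenly spread over the genotypes without following them in every animal, and their part in the results below was not tested. Leaving out the animals with high Lpl leaves 5 db/db and 2 db/m mice, and leaving out those with lung markers leaves 2 and 5, so a call can be lost there with no smaller change, and the fold is given beside it.

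Sequences upstream of chaperone genes are shown first, because the chaperones gave the largest group of members that fell and because chaperones of the endoplasmic reticulum carry a different upstream element. They come from RefSeq (GRCm38.p6), in which 53 of the 66 genes had a promoter window of 250 bases before and 50 after the transcript start. The heat shock element was searched on both strands as TTCNNGAA or GAANNTTC, and in an extended form in which TTCNNGAA runs on into NNTTC, which contains the shorter one. The short form lies in 15.1% and the extended form in 0.603% of all 32851 promoters. The endoplasmic reticulum stress element was searched as CCAATN(9)CCACG, with 9 free bases between the 2 blocks, and lies in 0.119% of all promoters. Among the members, the extended heat shock element was found for Hspe1, Hspd1, Hsph1 and Dnajb6, and the endoplasmic reticulum stress element for Hsp90b1, Hspa5 and Dnajc3. The short heat shock element was found for 13 of the 53 genes (24.5%). They include Hspd1, Hspe1 and Dnaja4, which were lower in input, and Atf5, Fosl2 and Ier5l, which were higher. A member gene with several windows was counted if any of them matched, whereas the shares over all promoters are per window, so the 2 are not in like units. Hsp90aa1 and Hsp90ab1 had no promoter window. A link between an element and a change was not tested. Capitals mark the motif, and each sequence is written 5′ to 3′ on the strand of its gene. A match is a run of letters and not a measured binding site.

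The first set holds heat shock elements of genes from the cytosol and mitochondria. Hspe1 is chr1:55088053-55088082 (+ strand), 66 to 95 bases before its start and inside the divergent gene Hspd1, whose own window contains the same element. Dnaja4 is chr9:54699458-54699487 (+ strand), 72 to 101 bases before the start used for its window and inside the annotated gene, with a further short match outside the stretch shown. Hspa1a is chr17:34972157-34972306 (- strand), the 150 bases before its start.
Hspe1: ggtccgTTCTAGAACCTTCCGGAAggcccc
Dnaja4: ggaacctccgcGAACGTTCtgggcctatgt
Hspa1a: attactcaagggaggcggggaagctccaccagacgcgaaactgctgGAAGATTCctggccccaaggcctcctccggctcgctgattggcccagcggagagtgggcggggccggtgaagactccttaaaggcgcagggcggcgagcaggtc

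The second set holds the 150 bases before the start of 3 genes of the endoplasmic reticulum. Hsp90b1 is chr10:86705445-86705594 (- strand), with a further match outside the stretch shown, Hspa5 is chr2:34771940-34772089 (+ strand) and Dnajc3 is chr14:118937782-118937931 (+ strand).
Hsp90b1: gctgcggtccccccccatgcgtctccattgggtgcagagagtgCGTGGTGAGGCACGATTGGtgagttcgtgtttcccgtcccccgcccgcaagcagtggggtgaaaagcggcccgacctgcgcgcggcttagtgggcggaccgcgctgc
Hspa5: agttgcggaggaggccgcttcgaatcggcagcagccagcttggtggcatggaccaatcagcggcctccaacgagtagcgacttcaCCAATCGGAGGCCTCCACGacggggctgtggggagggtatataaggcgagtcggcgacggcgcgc
Dnajc3: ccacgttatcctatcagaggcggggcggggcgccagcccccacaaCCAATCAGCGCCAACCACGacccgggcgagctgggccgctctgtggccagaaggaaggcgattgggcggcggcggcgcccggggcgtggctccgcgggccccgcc

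To determine how transcript abundance of these genes differed with diabetes, input reads were compared between the genotypes. Genes that fell in db/db kidneys were mostly chaperones and genes that rose were mostly stress and immediate early genes. Of the 158 member peaks, 40 passed an edgeR quasi-likelihood test (adjusted p under 0.05 over all 9857 peaks), 13 higher and 27 lower in db/db mice. Over all peaks 11.3% passed, 5.34% higher and 5.93% lower. By gene, 9 of the 66 were higher and 9 lower. Without db/db animal 5 the count was 24, and without db/m animals 4 and 5 in turn it was 26 and 25. In 21 member peaks the 2 genotypes did not overlap in input, against 7.89% of all peaks. By locus, 9 of the 101 loci were higher and 15 lower, against 317 and 375 of all 6547 loci. The direction of the calls depended in part on scaling, since library sizes without TMM factors gave 19 higher and 22 lower and moved the median log2 fold change of all peaks from -0.01 to 0.07.

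To determine whether the ac4C IP signal changed as well, the IP reads of the same peaks were compared. Of the 158 member peaks 28 passed, 10 higher and 18 lower in db/db mice, and 15 did not overlap between the genotypes. By locus, 6 of 101 were higher and 11 lower, against 179 and 219 of all 6547 loci. Without db/m animal 5 the count was 11, with 1 higher and 10 lower, and it was 15 without db/db animal 4 or db/db animal 5 and 18 without db/m animal 4. Over all peaks 6.45% passed, 3.07% higher and 3.38% lower, and 5.77% did not overlap. Without TMM factors, 13 were higher and 12 lower, with a median of 0.10 in place of 0.00 over all peaks. Changes of IP relative to input were then tested in all 22 libraries with a term for the animal. No member peak passed, against 0.0304% (3 peaks) over all 9857. At an unadjusted p under 0.05 the edgeR fit counted 11 of the 158 members (6.96%) and 6.76% of all peaks, DESeq2 counted 8 members (5.06%, against 4.17% of all peaks) and limma 12 (7.59%, against 6.96%), and neither passed any member after adjustment. A relative change that misses the threshold does not show that IP and input changed equally. In the plot of IP against input change, most loci lie near the line of equal change.

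**Figure D1:**
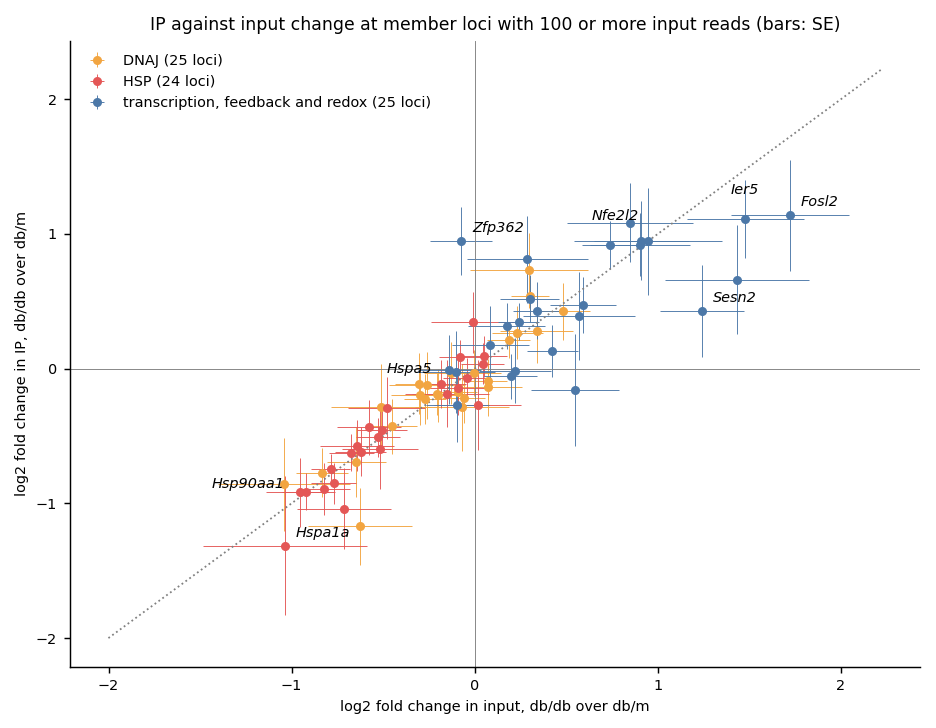
Each point is 1 of the 74 member loci with at least 100 input reads over the 11 input libraries; the x axis is the log2 fold change of input reads and the y axis that of IP reads, db/db over db/m, and bars are standard errors of the edgeR fit. The dotted line marks equal change. HSP loci (24, red) extend to the lower left, Fosl2, Ier5 and Nfe2l2 lie at the upper right, Zfp362 lies above the line (0.95 in IP, -0.07 in input) and Sesn2 below it (0.43 in IP, 1.24 in input).

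Heat shock genes formed the largest group of members with calls in one direction. Of their 45 peaks in 12 genes, Hspg2 included, 20 were lower in input and 15 lower in IP, and none was higher. These are 44.4% and 33.3%, against 11.3% and 6.45% of all peaks that passed in either direction. By locus, 11 of 26 were lower in input and 9 in IP. The median log2 fold change of the 43 peaks with at least 50 reads was -0.52 in input and -0.46 in IP, against 0.00 over all peaks in both. Leaving out any 1 animal gave 14 to 20 lower peaks in input and 9 to 15 in IP. Without the 4 animals with high Lpl, 17 were lower in input and 9 in IP, and without the 4 animals with lung markers, 6 and 4 were lower. The genes that fell in input were Hsp90aa1, Hsp90ab1, Hsp90b1, Hspd1 and Hspe1.

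Hsp90aa1, the inducible cytosolic HSP90 (peak chr12:110694142-110695164, - strand), fell in both library types. Its input level was 1280, 1538, 1091, 1671, 1466 and 1651 CPM in the db/db mice and 2653, 2706, 3198, 2878 and 2315 CPM in the db/m mice. The genotypes did not overlap, and the log2 fold change was -0.92 ± 0.128 (SE, edgeR adjusted p = 6.98e-05). In IP the level was 2667, 2946, 1791, 2358, 2559 and 2572 CPM against 4988, 3832, 4922, 5456 and 4209 CPM. These are means of 2482 ± 389 CPM (SD, n = 6) against 4681 ± 651 CPM (SD, n = 5), a log2 fold change of -0.92 ± 0.138 (SE, edgeR adjusted p = 0.000303). Relative to input the IP signal moved by 0.02 ± 0.0616 (SE, log2).

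Hsp90ab1, the constitutive cytosolic HSP90 (peak chr17:45570343-45571075, - strand), had an input level of 3453, 3696, 3532, 3859, 3578 and 4229 CPM in the db/db mice and of 6149, 6278, 7122, 6775 and 5820 CPM in the db/m mice, again with no overlap. Input reads fell by 0.79 on the log2 scale (SE 0.108, edgeR adjusted p = 5.93e-05) and IP reads by 0.74 (SE 0.11, edgeR adjusted p = 0.000254), and all 4 peaks of the gene passed in both. The IP call was lost without the 4 animals with lung markers, at a log2 fold change of -0.71 (edgeR adjusted p = 0.0628). The 2 HSP90 genes have pseudogenes and resemble each other, so reads could be split between near-identical sequences, and the way such reads were counted is not given in the sources used here.

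Hspd1 and Hspe1, which encode the mitochondrial chaperonin HSP60 and its partner HSP10 and share a promoter, were also lower. For Hspd1 (peak chr1:55079161-55081689, - strand) the input level was 451, 502, 411, 517, 417 and 649.9 CPM in the db/db mice and 797, 851, 897, 829.9 and 816 CPM in the db/m mice. The db/db animal nearest to the controls was animal 6, as for Hspe1 and Hsp90ab1 in input. It was animal 4 for Hsp90aa1, animal 1 for Hsp90b1 and animal 2 for Dnaja4. The proximal tubule marker sum of animal 6 was 2240 CPM, against 1890 to 2040 CPM in db/m mice, and a link to these levels was not tested. The log2 fold change was -0.77 ± 0.122 in input (SE, edgeR adjusted p = 0.000247) and -0.85 ± 0.152 in IP (SE, edgeR adjusted p = 0.00153), and neither passed without the 4 animals with lung markers (-0.65 in input, edgeR adjusted p = 0.0702, and -0.69 in IP, edgeR adjusted p = 0.211). For Hspe1 (peak chr1:55088340-55090772, + strand), singled out after its values were seen as the partner of Hspd1, input was 613 ± 174 CPM (SD, n = 6) against 914 ± 165 CPM (SD, n = 5), a log2 fold change of -0.58 ± 0.177 (SE, edgeR adjusted p = 0.042). Its genotypes overlapped, since db/db animal 6 had 896 CPM and db/m animal 2 had 654 CPM, and its IP change of -0.44 did not pass (edgeR adjusted p = 0.227).

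Hsp90b1, the HSP90 of the endoplasmic reticulum (peak chr10:86691078-86692207, - strand), fell in input. Input was 2619, 2172, 2024, 2364, 1784 and 2584 CPM in db/db mice and 3790, 2343, 3315, 3485 and 3091 CPM in db/m mice. Only db/m animal 2 lay within the db/db range, with a log2 fold change of -0.51 ± 0.137 (SE, edgeR adjusted p = 0.0207) which was not passed without db/db animal 5 or without db/m animals 1, 3 and 4 in turn (-0.49 to -0.44), nor without the animals with lung markers (-0.55). All 8 of its peaks, from near the start to near the end of the gene, passed in input (log2 fold changes from -0.64 to -0.51), and 4 passed in IP. Hspa5, which encodes BiP, the HSP70 of the same compartment (peak chr2:34775849-34776028, + strand, overlapping the antisense gene Rabepk), gave 556, 476, 358, 496, 305 and 368 CPM in db/db mice and 405, 338, 513, 593 and 421 CPM in db/m mice. The genotypes overlapped over nearly their whole range, the log2 fold change was -0.09 ± 0.165 (SE, edgeR adjusted p = 0.779), and none of its 5 peaks passed in either library type. Both genes carry the endoplasmic reticulum stress element shown above. The 5 peaks ranged from -0.15 to 0.02 in input.

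The other HSP70 genes gave no call. Hspa9, the mitochondrial HSP70, had 6 peaks with input log2 fold changes from -0.18 to 0.05, and Hspa4, an HSP70 nucleotide exchange factor, had 4 peaks from -0.08 to -0.04. Hspa1a, the stress-inducible HSP70 (peak chr17:34971527-34971677, - strand), singled out after its values were seen, varied most among the controls. Its input level was 65.4, 57.5, 51.1, 50.1, 38.6 and 60.4 CPM in the db/db mice and 23.4, 38.1, 205, 246 and 40.2 CPM in the db/m mice. The 2 high controls were animals 3 and 4, and the other 3 controls lay between 23.4 and 40.2 CPM, so the log2 fold change of -1.04 ± 0.45 did not pass (SE, edgeR adjusted p = 0.16). Its IP levels were also high in db/m animals 3 and 4 (244 and 235 CPM) and 16.3 to 42.5 CPM in the other controls. The gene has a near-identical copy, Hspa1b, so its reads are uncertain. Hsph1, an HSP110 exchange factor, was likewise highest in input in db/m animals 3 and 4 (788 and 909 CPM, against 320 to 562 CPM in the other controls and 323 to 511 CPM in db/db mice, peak starting at 149618998 on chromosome 5). Of its 4 peaks 1 passed, in IP alone (peak starting at 149636108, log2 fold change -1.04, edgeR adjusted p = 0.0476).

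**Figure D2:**
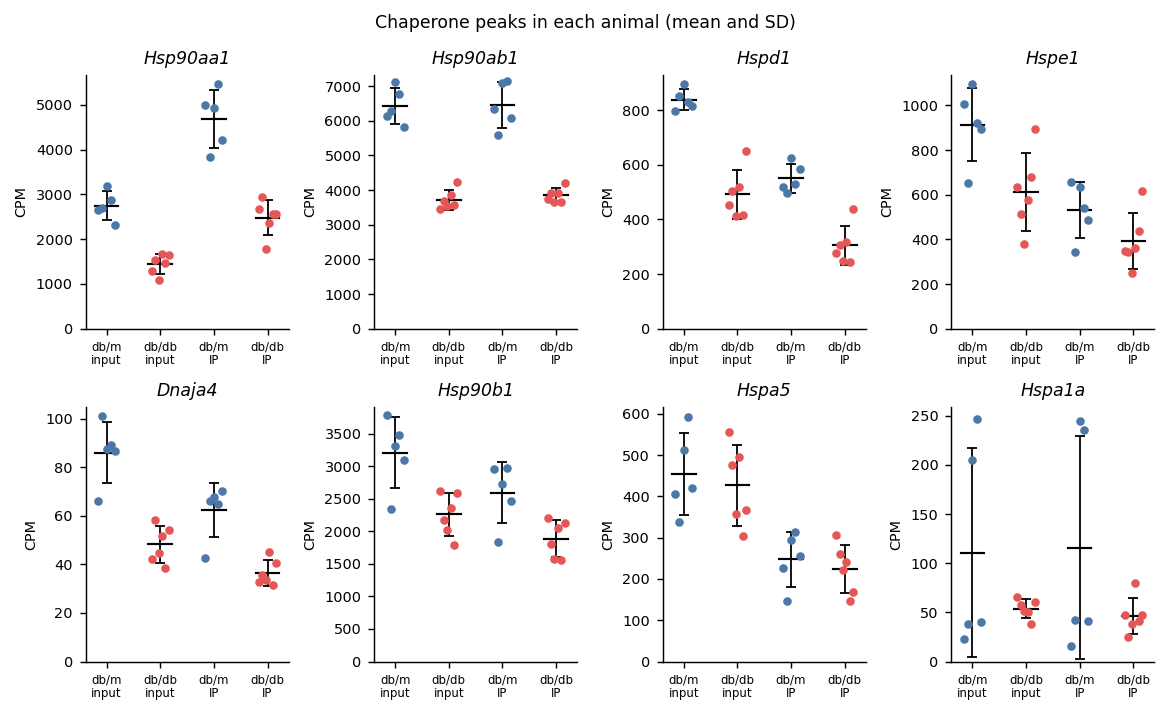
Each panel shows 1 chaperone peak, with the level in CPM (linear axis from 0) of each animal in input and IP for db/m (blue, n = 5) and db/db (red, n = 6); black lines are the mean and SD. Hsp90aa1 and Hsp90ab1 do not overlap between the genotypes in either library type, Hspa5 overlaps almost fully, and Hspa1a is high in 2 db/m animals.

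The DNAJ co-chaperones had 48 peaks in 19 genes, with a median log2 fold change of -0.09 in input and -0.14 in IP. In input 2 were higher and 6 lower (16.7% passed, against 11.3% of all peaks). In IP 2 were higher and 3 lower (10.4%, against 6.45% of all peaks). Dnaja4, an HSP40 that is induced by heat shock (peak chr9:54709215-54710565, + strand), fell. Its input level was 42.2, 58.1, 44.8, 51.7, 38.6 and 54.0 CPM in db/db mice and 66.1, 101, 87.3, 89.0 and 86.5 CPM in db/m mice, with no overlap and a log2 fold change of -0.83 ± 0.14 (SE, edgeR adjusted p = 0.000458). Its IP reads fell by 0.77 (SE 0.179, edgeR adjusted p = 0.0121), a call that was lost without db/m animal 5 (-0.70) and without the animals with lung markers (-0.79). Dnajc22 (peak chr15:99101017-99101194, + strand) fell from 57.7 ± 13.8 CPM in db/m mice (SD, n = 5) to 36.8 ± 5.88 CPM in db/db mice (SD, n = 6) in input (edgeR adjusted p = 0.0114), a call that was lost without the animals with high Lpl (-0.57) and without those with lung markers (-0.61). Dnajc2, a ribosome-associated co-chaperone (peak chr5:21766629-21773807, - strand), fell by 0.45 (SE 0.139, edgeR adjusted p = 0.0426), a call that was lost under 12 of 18 alternatives, among them 8 of the 11 that leave out 1 animal.

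Dnajc17 in input and Dnajc7 in IP went the other way, at 2 of 48 peaks and 1 of 26 loci each. Over all peaks 5.34% were higher in input and 3.07% in IP. Dnajc17, singled out after its values were seen because it alone rose in input, was at 55.5 to 90.4 CPM in db/db mice and 40.0 to 59.0 CPM in db/m mice (log2 fold change 0.48, edgeR adjusted p = 0.0436). No DNAJ peak passed as higher in input without db/db animal 2, without the animals with high Lpl or without those with lung markers. Dnajc7, a co-chaperone that binds both HSP70 and HSP90 (peak chr11:100584247-100589919, - strand, overlapping Cnp), rose in IP from 183 ± 27.7 CPM in db/m mice (SD, n = 5) to 265 ± 35.2 CPM in db/db mice (SD, n = 6), a log2 fold change of 0.54 ± 0.145 (SE, edgeR adjusted p = 0.0309). Its input log2 fold change was 0.30 ± 0.105 (SE, edgeR adjusted p = 0.0739), and neither library type overlapped between the genotypes. The IP call depended on each of db/db animals 1, 4 and 5 and db/m animals 2 and 5, and was lost without the animals with high Lpl (0.57) and without those with lung markers (0.68). Dnajc8, the member of its family with the most input reads (peak chr4:132544079-132552135, + strand, overlapping Gm24762), gave 626 ± 85.6 CPM in db/db mice (SD, n = 6) and 550.3 ± 59.1 CPM in db/m mice (SD, n = 5) and did not pass (edgeR adjusted p = 0.353). Dnajc3, whose product acts with BiP and whose upstream sequence is shown above (its longer peak overlaps Gm4678), had 2 peaks with input log2 fold changes of -0.26 and -0.09 and no call.

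Among the members of the ATF, DDIT and SESN families and Xbp1, the peaks that passed were higher in db/db mice. Hsp90b1 of the endoplasmic reticulum, which fell in input, was counted with the heat shock genes. Of 11 peaks in 5 genes (Atf4, Atf5, Ddit3, Sesn2 and Xbp1), 4 were higher in input and 2 in IP, and none was lower. These are 36.4% and 18.2%, against 11.3% and 6.45% of all peaks that passed in either direction. The 2 Atf5 peaks hold the same reads, and by locus 3 of 8 were higher in input and 1 in IP. Leaving out 1 animal gave 1 to 5 higher in input and 0 to 3 in IP, with the fewest without db/db animal 4, and no peak passed without the animals with high Lpl or without those with lung markers. Ddit3, which encodes the transcription factor CHOP (peak chr10:127295873-127295992, + strand), had an input level of 234, 181, 117, 423, 230.4 and 141 CPM in the db/db mice and 125, 77.2, 155, 123 and 107 CPM in the db/m mice. The groups overlapped, with db/db animal 4 far above the others. The log2 fold change was 0.91 ± 0.259 (SE, edgeR adjusted p = 0.0276), and it was 0.62 without db/db animal 4, which did not pass (edgeR adjusted p = 0.0723). The call was also lost without db/m animal 4 or 5, without the animals with high Lpl (0.86) and without those with lung markers (0.66). Sesn2, a leucine sensor and target of stress transcription factors (peak chr4:132498003-132498986, - strand), was at 10.2, 12.0, 11.1, 10.97, 11.1 and 10.3 CPM in db/db mice and at 5.13, 2.84, 5.89, 2.87 and 6.34 CPM in db/m mice in input. It rose with no overlap, by 1.24 ± 0.229 on the log2 scale (SE, edgeR adjusted p = 0.00108; not passed without the animals with high Lpl, at 0.86, nor without those with lung markers, at 1.21), whereas its IP change of 0.43 ± 0.344 did not pass (SE, edgeR adjusted p = 0.53). The difference between the 2 changes was -0.88 ± 0.358 (SE) and did not pass either (edgeR adjusted p = 0.593).

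Atf5, a transcription factor of the integrated and mitochondrial stress responses (peak chr7:44812880-44813088, - strand), rose in both library types. Its IP level was 34.2, 36.0, 34.9, 63.9, 38.2 and 29.1 CPM in db/db mice and 25.5, 14.5, 22.5, 23.9 and 17.5 CPM in db/m mice, with no overlap (log2 fold change 0.92 ± 0.235, SE; edgeR adjusted p = 0.0229). Its input change was 0.90 ± 0.274 (SE, edgeR adjusted p = 0.0399) with overlapping groups, and that call was lost under 10 of 17 alternatives, including the removal of any 1 animal other than db/db 1, db/db 6 and db/m 4. The IP call depended on each of db/db animal 4 and db/m animal 5, and was lost without the animals with high Lpl (1.07) and without those with lung markers (0.69). Atf4, the central factor of the integrated stress response (peak chr15:80257213-80257481, + strand), gave 208 ± 29.5 CPM in db/db mice (SD, n = 6) and 164 ± 26.7 CPM in db/m mice (SD, n = 5) in input, which did not pass (log2 fold change 0.34, edgeR adjusted p = 0.118). Xbp1, the spliced effector of the unfolded protein response, had 4 peaks with input log2 fold changes from 0.09 to 0.30 and none passed.

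The redox and hypoxia members had 14 peaks in 4 genes (Nfe2l1, Nfe2l2, Keap1 and Hif1an), of which only the single peak of Nfe2l2 passed. That is 7.14% in input and in IP, against 11.3% and 6.45% of all peaks. Nfe2l2, which encodes NRF2 (peak chr2:75676139-75676288, - strand, near the 3′ end of the gene), rose in both library types. Its input level was 133, 120.5, 136, 157, 198 and 120.1 CPM in db/db mice and 85.7, 67.1, 103, 90.3 and 85.9 CPM in db/m mice. Its IP level was 62.7, 51.9, 71.3, 71.3, 95.2 and 64.8 CPM against 33.1, 31.4, 38.5, 42.4 and 38.5 CPM. Neither overlapped, with log2 fold changes of 0.74 ± 0.149 in input (SE, edgeR adjusted p = 0.00251) and 0.92 ± 0.18 in IP (SE, edgeR adjusted p = 0.00335), and with an exact two-sided permutation p of 0.00216 in each, the smallest that 462 splits can give. Both calls were lost without the 4 animals with high Lpl, at log2 fold changes of 0.66 and 0.89. Keap1, the NRF2 repressor, had 3 peaks with input log2 fold changes from -0.13 to -0.09. Nfe2l1 (peak chr11:96818817-96819265, - strand), the related factor that controls proteasome genes, gave a log2 fold change of 0.24 ± 0.113 in input (SE, edgeR adjusted p = 0.195).

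The AP-1 members were Fosl2, Jun and Jund, with 6 peaks. Fosl2 (peak chr5:32150483-32152895, + strand) had the largest rise among the named members with over 50 input reads. Its input level was 15.4, 27.9, 39.4, 30.7, 29.7 and 9.10 CPM in db/db mice and 8.02, 9.77, 5.89, 4.15 and 10.5 CPM in db/m mice. All but db/db animal 6 lay above the controls, and the log2 fold change was 1.72 ± 0.324 (SE, edgeR adjusted p = 0.00132), or 1.33 without the animals with lung markers, which did not pass (edgeR adjusted p = 0.106). In IP it was 1.14 ± 0.411 (SE, edgeR adjusted p = 0.116). Jun (peak chr4:95050077-95050256, - strand) was at 30.1, 30.3, 21.7, 52.7, 62.6 and 20.9 CPM in db/db mice and at 49.4, 9.14, 9.81, 15.6 and 10.1 CPM in db/m mice in input. Only db/m animal 1 reached the db/db range, and the log2 fold change of 0.95 ± 0.402 did not pass (SE, edgeR adjusted p = 0.15). Without that animal it was 1.70 and passed (edgeR adjusted p = 0.00125), as it did without the animals with high Lpl (1.98). Jund (peak chr8:70699009-70699306, + strand) gave 46.2 ± 9.87 CPM in db/db mice (SD, n = 6) and 37.5 ± 5.68 CPM in db/m mice (SD, n = 5), which did not pass (edgeR adjusted p = 0.265), and overlaps Gm11175.

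Among the EGR, NR4A and IER members (9 peaks in 4 genes), 4 peaks were higher in input and 2 in IP. These are 44.4% and 22.2%, against 11.3% and 6.45% of all peaks that passed in either direction. Overlapping peaks share reads, and by locus 2 of 6 were higher in input and 1 in IP. Ier5, an immediate early gene whose product acts on HSF1 (peak chr1:155098534-155098713, - strand), had an input level of 8.13, 17.4, 19.7, 24.8, 22.1 and 7.89 CPM in db/db mice and 5.78, 5.36, 6.87, 8.62 and 3.17 CPM in db/m mice. Its log2 fold change came to 1.48 ± 0.318 in input (SE, edgeR adjusted p = 0.00411) and 1.11 ± 0.287 in IP (SE, edgeR adjusted p = 0.0249), and db/db animals 1 and 6 lay within the range of the controls in input. The IP call depended on each of db/db animal 5 and db/m animals 1, 4 and 5, and was lost without the animals with high Lpl (0.86) and without those with lung markers (1.43). The input call was lost without the animals with lung markers, at 1.33. Ier5l (peak chr2:30472640-30472818, - strand) rose in input from 1.54 ± 0.633 CPM in db/m mice (SD, n = 5) to 4.23 ± 2.05 CPM in db/db mice (SD, n = 6), a log2 fold change of 1.43 ± 0.393 (SE, edgeR adjusted p = 0.0223), on 107 input reads in all, a call that depended on each of db/db animal 5 and db/m animals 4 and 5 and was lost without the animals with high Lpl (1.09). Ier2 and Nr4a3 gave no call.

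Few of the growth arrest and survival members passed (Btg1, Gadd45a, Gadd45g, Gadd45gip1, Mcl1 and Mycl, 10 peaks). In input 1 peak was higher (Mcl1) and in IP 2 were higher, both overlapping peaks of Gadd45a, and none was lower. By locus, 1 of 8 was higher in each library type. The input share was not above that of all peaks, of which 11.3% passed in input and 6.45% in IP in either direction. Gadd45a, a p53 and stress target (peak chr6:67035424-67035632, - strand), had an IP level of 92.9, 134, 135, 174, 306 and 88.9 CPM in db/db mice and 112, 46.9, 83.9, 69.3 and 54.2 CPM in db/m mice. In IP the difference was 1.08 ± 0.296 (log2, SE, edgeR adjusted p = 0.0335), and in input it was 0.85 ± 0.344 (SE, edgeR adjusted p = 0.131), or 1.16 without db/m animal 1, which passed (edgeR adjusted p = 0.0373). Mcl1, which encodes a labile antiapoptotic BCL2 family protein (peak chr3:95662816-95662966, + strand), rose in input from 46.9 ± 8.59 CPM in db/m mice (SD, n = 5) to 70.6 ± 19 CPM in db/db mice (SD, n = 6), a log2 fold change of 0.59 ± 0.182 (SE, edgeR adjusted p = 0.0426). The Gadd45a call in IP depended on each of db/db animals 4 and 5 and db/m animals 2 to 5, and the Mcl1 call in input on each of those animals and db/db animal 1. Without the animals with high Lpl and without those with lung markers neither passed, at 1.30 and 1.43 for Gadd45a and 0.56 and 0.71 for Mcl1.

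**Figure D3:**
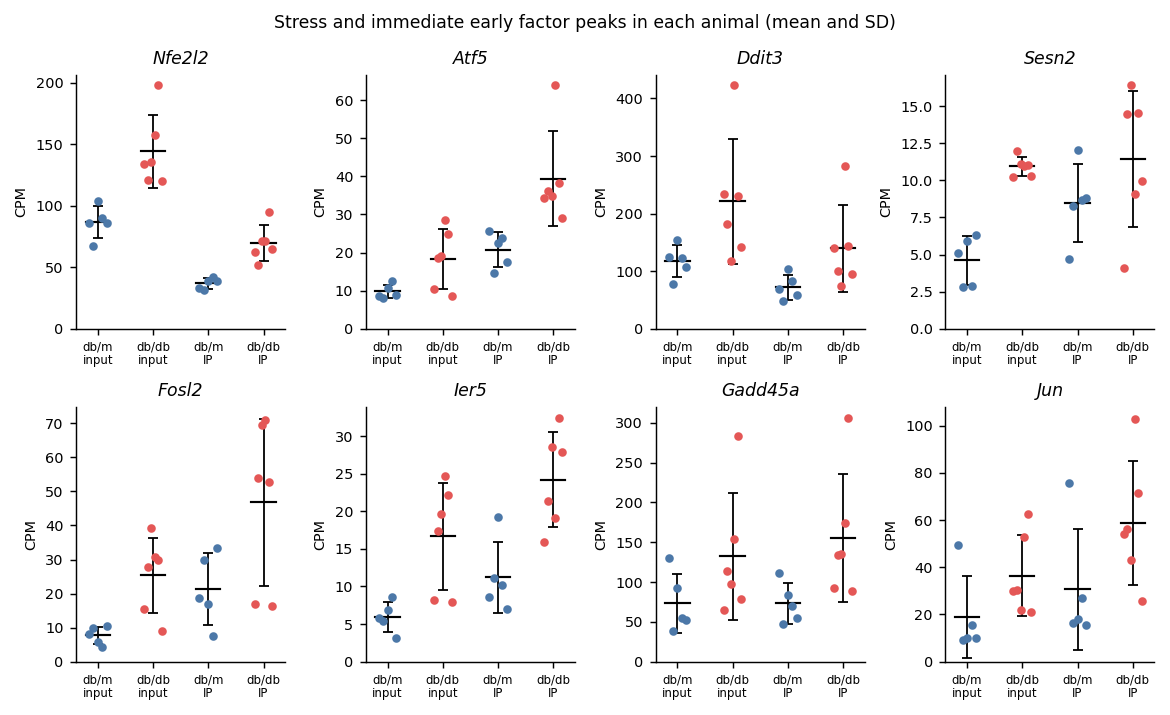
Each panel shows 1 stress or immediate early peak, with the level in CPM (linear axis from 0) of each animal in input and IP for db/m (blue, n = 5) and db/db (red, n = 6); black lines are the mean and SD. Nfe2l2 does not overlap between the genotypes in either library type, Sesn2 does not in input and Atf5 does not in IP, and 1 db/m animal stands high for Jun.

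The feedback phosphatases and the KLF factors were measured at low depth. Of 10 DUSP peaks in 8 genes, 5 had fewer than 50 reads over the 22 libraries. Dusp9 (peak chrX:73642408-73642557, + strand) passed as lower in input (edgeR adjusted p = 0.0128) on 13 reads, 1 in db/db animal 4 and none in the other db/db mice, and 4, 2, 1, 3 and 2 in the db/m mice. A count of 0 is compatible with as many as 3 reads, or 0.895 to 0.952 CPM in input, so most of these values lie below what a single library can resolve, and such limits cover counting error only. Dusp16 (peak chr6:134716337-134716397, - strand) gave 7.78 ± 2.18 CPM in db/db mice (SD, n = 6) and 5.31 ± 0.948 CPM in db/m mice (SD, n = 5) in input, which did not pass (edgeR adjusted p = 0.169). The KLF factors Klf5, Klf7 and Klf15 had 1 peak each and 36, 10 and 15 reads in all, and differences were not detectable at this depth. Klf5 (peak chr14:99298691-99298869, + strand) had 6 input reads. Klf15, a glucocorticoid-responsive KLF of the kidney (peak chr6:90465363-90465422, + strand), had 3 input reads and 12 IP reads, 9 of them in db/db animal 3.

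Zfp362 had the lowest unadjusted p of all member peaks for a change of IP relative to input. It encodes a zinc finger protein and is not a ZFP36 decay factor (peak chr4:128774015-128774165, - strand). Its IP level was 19.3, 18.9, 21.5, 19.2, 29.7 and 18.3 CPM in db/db mice and 9.76, 7.95, 13.4, 15.4 and 8.35 CPM in db/m mice, with no overlap, while its input level was 20.3 to 27.5 CPM and 18.9 to 36.3 CPM. The log2 fold change was 0.95 ± 0.254 in IP (SE, edgeR adjusted p = 0.0309) and -0.07 ± 0.169 in input (SE, edgeR adjusted p = 0.834). The change of IP relative to input was 1.03 ± 0.254 (SE). It did not pass the adjustment over all peaks (edgeR adjusted p = 0.093), although it passed without db/m animal 3 or 4. The exact two-sided permutation p was 0.00216, the smallest that 462 splits can give. That p rests on the values by which the gene was singled out, so it is no separate support. The IP call of Zfp362 depended on each of db/db animal 5 and db/m animals 1, 2 and 5. It was lost without the animals with high Lpl (1.02) and without those with lung markers (1.13).

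The enrichment of IP over input was described without a test, since the peaks had been called for it. Over the 11 animals the IP over input fold, the mean of log2((IP CPM + 1) / (input CPM + 1)) taken back to a linear scale, had a median of 0.90 over the 139 member peaks with at least 50 reads (quartiles 0.67 and 1.30) and of 1.15 over the 8016 such peaks of the table (quartiles 0.80 and 1.63). It was 2.78 for the EGR, NR4A and IER members, 1.83 for AP-1, 0.83 for the DNAJ genes and 0.70 for the HSP genes as a median of their peaks. By gene, it was 2.88 for Ier5l, 2.10 for Atf5, 1.99 for Fosl2, 1.83 for Jund and 1.71 for Hsp90aa1, and 1.02 for Hsp90ab1, 0.63 for Hspd1, 0.62 for Ddit3, 0.53 for Hspa5 and 0.46 for Nfe2l2. CPM were scaled to the total peak reads of each library, so the fold is relative to the other peaks of the table. A value under 1 means that a peak took a smaller scaled share of the IP than of the input peak reads. It does not show that the peak lacked enrichment against RNA outside the peaks, which was not analysed here. Among single-locus peaks of at most 1000 bases, 26 of 54 member loci (48.1%) had their centre in the last 20% of the gene and 12 (22.2%) in the first 20%, against 47.7% and 27.3% of all such loci. The median IP over input fold in the first 20% was 1.03 for members and 1.38 for all loci, and in the last 20% it was 0.90 and 1.10. Whether a peak lay in an exon, an intron or a UTR was not analysed here.

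**Figure D4:**
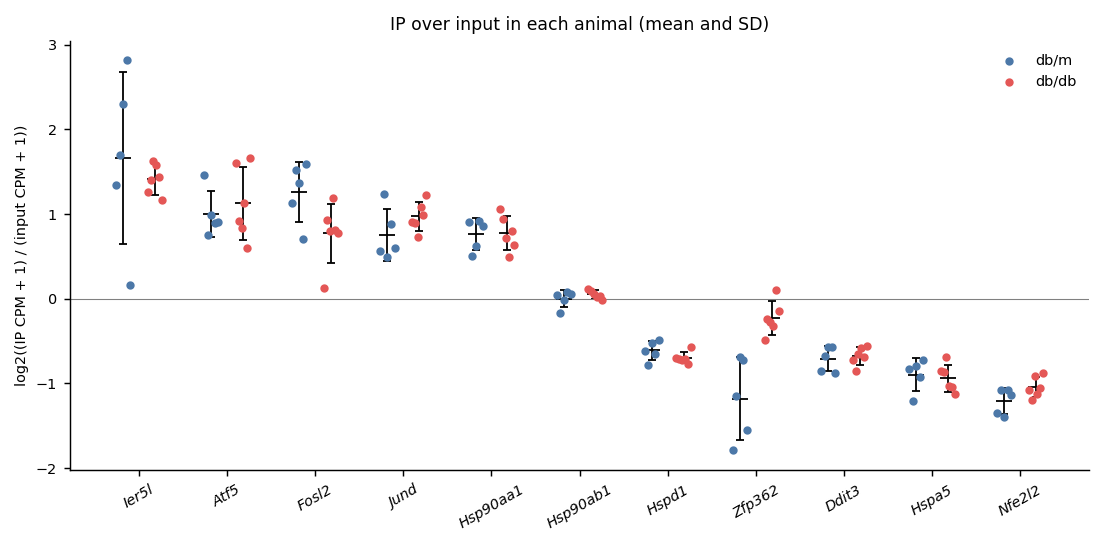
Points are animals, and the y axis is log2((IP CPM + 1) / (input CPM + 1)) for 11 named peaks in db/m (blue, n = 5) and db/db (red, n = 6), with mean and SD in black; 0 marks equal levels. Ier5l, Atf5, Fosl2, Jund and Hsp90aa1 lie above 0 and Hspd1, Ddit3, Hspa5 and Nfe2l2 below it in both genotypes, and the Zfp362 values of the genotypes do not overlap.

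Other genes of the same pathways were taken from lists and counted in the same fits. Of 23 listed unfolded protein and integrated stress response targets, 8 had a peak (17 peaks), of which 8 peaks were lower in input and 4 in IP and none was higher. They were Calr and Canx, the lectin chaperones of the endoplasmic reticulum (Canx log2 fold change -0.61 in IP, edgeR adjusted p = 0.0018, and lower in input with edgeR adjusted p = 0.000617 at the peak starting at 50296298 on chromosome 11), and Pdia6, a disulfide isomerase, in input. Of 12 glucocorticoid targets, 5 had a peak (12 peaks), of which 7 were higher in input (Fkbp5, Pdk4 and Per1) and 3 in IP (Fkbp5). By locus, 5 of 8 were higher in input and 2 in IP. Fkbp5, the HSP90 co-chaperone that is induced by glucocorticoids, had a log2 fold change of 1.37 ± 0.21 in IP (SE, edgeR adjusted p = 0.000338, peak starting at 28401044 on chromosome 17). Of 16 NRF2 targets, 7 had a peak (13 peaks), of which 2 were higher (Cbr1) and 2 lower (Me1) in each library type, so these targets did not move one way. Of 16 hypoxia targets, 6 had a peak (13 peaks), and both peaks of Ndrg1 were higher in each library type. Of 31 further immediate early genes, 7 had a peak (14 peaks), and Maff alone passed, higher in input and IP on 26 input reads. In input 47.1% of the unfolded protein list, 58.3% of the glucocorticoid list and 30.8% of the NRF2 list passed. The hypoxia and immediate early lists gave 15.4% and 7.14%, against 11.3% of all peaks in either direction. In IP the last 2 shares were the same, against 6.45% of all peaks. The unfolded protein and NRF2 lists gave 23.5% and 30.8% in IP. Each share rests on 12 to 17 peaks in 8 to 12 loci, and overlapping peaks share reads.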

How the data were processed

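From the kidneys of 6 db/db mice and 5 db/m mice, 22 libraries were made, an ac4C IP and an input library per animal. Per the study's methods, mRNA was selected, cut to short fragments and pulled down with an ac4C antibody. The authors deposited 1 table of peaks called in a db/db and a db/m list, with raw read counts per peak and library, and with the fold enrichment ratio, p-value and FDR of each peak. The build is GRCm38 in the submitters' processing notes, and the aligner, peak caller and counting are not given in the sources used here. Columns holding the authors' own genotype comparison (a log2 fold change with its p-value and FDR in the deposited table) were not used. Peaks are not per animal, so a peak says nothing of calls in single mice, and the counts are taken as not strand specific.

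Counts were fitted with edgeR 4.0.16 (TMM, quasi-likelihood, no filter on low counts, R 4.3.3) over all 9857 peaks for IP, for input and, with a term for the animal, for IP relative to input. The p-values were Benjamini-Hochberg adjusted over all peaks, and 0.05 was the threshold. The spread of that last fit was taken from the trend over peaks alone (its prior degrees of freedom were infinite), so its p-values may be too small. CPM are counts scaled to the total peak reads of the library times its TMM factor, with the factors computed apart for IP and input libraries. Exact permutation tests used all 462 splits of the animals on log2(CPM + 1). A locus joins overlapping peaks. The fits were tested on simulated counts. DESeq2 1.42.0 and limma 3.58.1 were alternatives, with leaving out each animal, no TMM, a filter of 10 reads on the mean, 1 peak per locus and a replicate block. Leaving out animals with high Lpl (from the adipocyte list) or with lung markers in the IP library was added after seeing the data. Figures and tables used Python 3.11.15.

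The members and lists were chosen with earlier results of these data known. In each role group up to 4 genes that passed, in order of the smallest adjusted p, and the gene with the most input reads are described, with Fos, Jun, Egr1, Atf3, Klf4, Klf6, Klf9, Klf15, Myc, Txnip, Hspa5, Hspa8, Hsp90aa1, Nfe2l2, Hif1a and Sgk1 where they have a peak, and for each the peak with the most input reads is given. The labels give no more than a number per animal, so p-values measure the spread between these samples. Equal numbers in the 2 genotypes did not mark pairs (see the correlations in the closing section).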

Additional observations from a re-analysis of the deposited data

Results flagged for a closer look

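In 15 of 112 groups of 5 or 6 animals, 1 animal stood apart from the rest by Dixon's test, where chance alone would give about 5.6. Animal db/m 1 gave the high Jun level, 75.7 CPM in IP (15.5 to 27.0 CPM in the other db/m mice) and 49.4 CPM in input (9.14 to 15.6 CPM), and the low Dnaja4 level of 42.6 CPM in IP and Dnajc2 level of 165 CPM in input. Animal db/db 4 was high in IP for Ddit3 (283 CPM) and Atf5 (63.9 CPM). Animal db/db 5 was high in IP for Ier5l (23.1 CPM), Zfp362 (29.7 CPM) and Dnajc8 (634 CPM). Animal db/db 6 was high for Hspd1 in IP (438 CPM, against 244 to 316 CPM in the other db/db mice), and db/m 2 was low for Dnajc7 in input (289 CPM, against 354 to 373 CPM). The remaining values rest on few reads: Klf15 in IP at 1.08 CPM in db/db animal 3 (9 reads) and at 0.111 CPM in db/m animal 5 (1 read), Klf5 in input at 0.315 CPM in db/m animal 2 (1 read) and Dusp9 in input at 0.313 CPM in db/db animal 4 (1 read).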

How the results depend on the processing

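Counting 1 peak per group of overlapping peaks left 14 member peaks past the threshold in IP (6 higher, 8 lower) and 24 in input (14 lower). A fold change over 1 on the log2 scale, asked in addition, left 6 in IP (4 higher, 2 lower) and 7 in input (6 higher, 1 lower). The replicate block gave 38 in IP and 53 in input (20 higher), of which 28 and 39 were also called without it. Same-numbered animals deviated with correlations of -0.23 to 0.17 in IP and -0.33 to 0.45 in input, and 0 of 5 db/m animals correlated best with their own number, so the numbers were not taken to pair animals. DESeq2 called 36 in IP and 42 in input, including 28 and 40 of those called by edgeR. Leaving out 1 animal gave 11 to 27 in IP (1 to 12 higher, 10 to 18 lower), 24 to 41 in input (5 to 16 higher, 18 to 25 lower) and 0 to 1 relative to input. The IP count was 15 without db/db 4, 15 without db/db 5, 18 without db/m 4 and 11 without db/m 5, and the input count was 24 without db/db 5, 26 without db/m 4 and 25 without db/m 5. Without the animals with high Lpl it was 13 in IP (2 higher, 11 lower) and 24 in input (5 higher), and without those with lung markers 5 in IP (1 higher, 4 lower) and 11 in input (3 higher, 8 lower), both with fewer animals (7). The Hsp90ab1 input, Hsp90aa1 input and IP and Dnaja4 input calls passed under each of their 18 alternatives. Among values with changed sign, none passed the test: Hspa5 in input ranged from -0.18 to 0.026 with 1 animal left out, Klf5 in IP from -0.72 to 1.49 (-0.72 without the animals with high Lpl), Dusp16 in IP from -0.45 to 0.086 and Zfp362 in input from -0.17 to 0.077 (0.00714 without TMM, 0.078 without the animals with high Lpl). The cause of these shifts was not tested. Read depth limits the KLF and DUSP peaks most.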
